A study of Mus musculus with 4 samples.

Results

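The 10 genes described here encode the insulin-like growth factors (IGFs), their receptors and their binding proteins. They were taken as the rows of the deposited value table whose single gene symbol was Igf1, Igf2, Igf1r, Igf2r, Igfbp2, Igfbp3, Igfbp4, Igfbp5, Igfbp6 or Igfbp7. All 10 were found among the 22180 genes with a row of their own, out of 41345 rows in all. The rule keeps the brightest row where a gene has several, but each of the 10 genes had 1 row, so brightness decided nothing.

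The study compared fibroblasts labelled Zip13KO with fibroblasts from wild-type (WT) mice, with 2 biological replicates each, on Affymetrix Mouse Gene 2.0 ST arrays. Zip13 is the protein of Slc39a13, a zinc transporter of the secretory pathway, and the series describes the altered animals as Zip13-/- mice, with zinc balance around the Golgi as its interest. The labels used here give no strain, age, sex, body site or passage of the cells. They do not say whether replicates were separate animals or cultures. The p-values set the difference between groups against the spread of replicates, which is drawn largely from genes of like intensity and less from the gene tested. That spread may be partly or only technical, so the p-values may be too small and need not hold for other animals.

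IGF1 and IGF2 are secreted growth factors that act through the tyrosine kinase IGF1R, which signals through insulin receptor substrates, PI3K and AKT and through MAP kinases. IGF2R, also called the cation-independent mannose 6-phosphate receptor, removes IGF2 from the cell surface without signalling growth, and carries lysosomal enzymes out of the Golgi. The IGF-binding proteins are secreted, hold IGFs in the medium or on the matrix, and can restrain or prolong their action. Fibroblasts are a major source of both the ligands and the binding proteins in connective tissue.

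Slc39a13 itself had log2 intensities of 8.89 and 8.98 on the arrays labelled Zip13KO, against 8.94 and 8.85 in WT. They overlapped, with Zip13KO minus WT at 0.04 (limma adjusted p = 0.82). Whether its probes lie in the altered stretch is not known here, so the labels are not checked by it. Arrays of a group resembled each other more (Pearson's r over rows of 0.994 within Zip13KO and 0.994 within WT) than arrays of different groups (0.983 to 0.985). Of 10 fibroblast markers, Vim, Thy1 and Col1a1 were among the brightest rows, and Lum lay below the array medians on all arrays. In Zip13KO 1 of the 10 (Pdgfra) rose and 5 fell (Vim, Col1a1, Col1a2, Fn1 and Pdgfrb), where 7.00% of all genes rose and 10.1% fell. Of 8 contractile markers none rose in limma (1 was higher at an unadjusted p under 0.05) and 5 fell (Acta2, Actg2, Tagln, Myl9 and Cnn1), and their summed intensity was 3226 to 3234 in Zip13KO against 13908 to 14473 in WT. Of 5 mesothelial markers Msln alone passed, at 2.97, and of 7 macrophage markers 1 rose and 2 fell, at a summed intensity of 668 to 672 in Zip13KO against 673 to 720 in WT. Of the 5 endothelial, 5 epithelial, 5 adipocyte and 4 hepatocyte markers measured none passed in limma, and 3 of these 19 had an unadjusted p under 0.05. Whether a shift in the kind or state of the cells has a part in the IGF results was not tested, and in bulk RNA fewer cells of a type and less RNA per cell cannot be told apart.

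In Zip13KO fibroblasts the binding protein gene Igfbp7 fell 10.6-fold and the ligand gene Igf1 fell 2.47-fold, while the binding protein gene Igfbp5 rose 3.08-fold. Igf2 and Igf1r fell by smaller amounts. The other 5 genes, Igf2r, Igfbp2, Igfbp3, Igfbp4 and Igfbp6, did not pass the threshold. With limma and Benjamini-Hochberg adjustment over all genes at adjusted p under 0.05, 4 of the 10 genes were lower, where 10.1% of all genes were, and 1 was higher, where 7.00% were. In either direction 5 of 10 passed, against a background of 17.1%, and against 26.1% of the 13819 genes that exceeded the array median on 2 or more arrays, as all 10 did. In those brighter genes 15.5% were lower and 10.6% higher. The groups did not overlap for 8 of the 10 genes (6 lower, 2 higher), which was also so for 51.5% of all genes (27.3% lower, 24.1% higher). The median difference of the 10 genes was -0.18 log2 units, beside -0.0034 over all genes. With 2 arrays against 2, an exact permutation test cannot go below p = 0.333, so every call rests on the moderated model. The genes were proposed with earlier results on these arrays known, so these counts describe them and are no independent evidence.

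**Figure D1:**
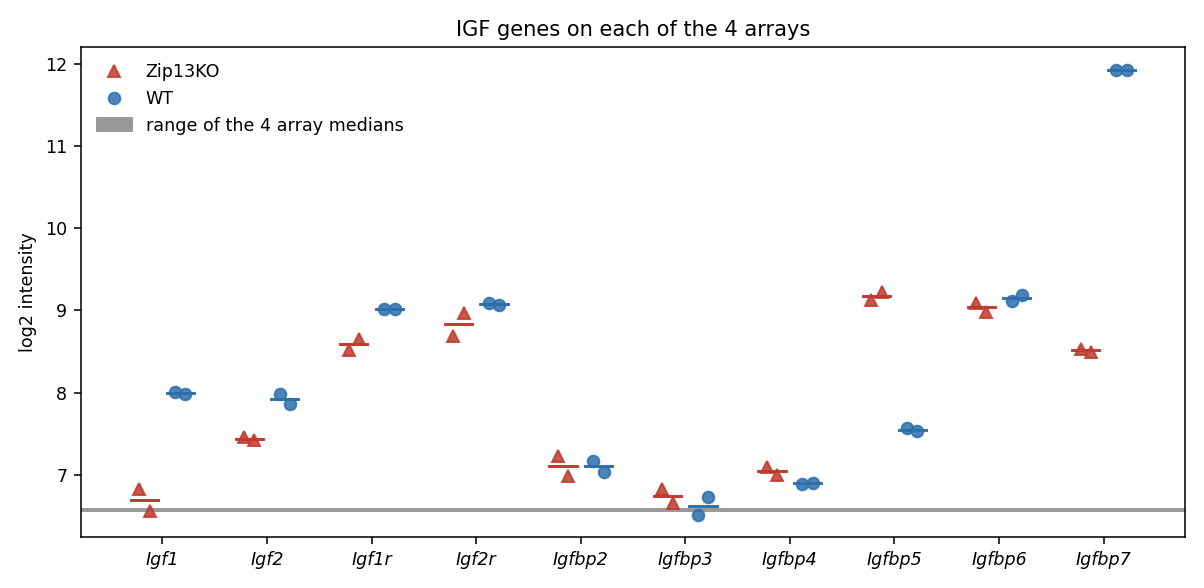
Log2 intensity (vertical axis) of the 10 IGF genes on each array, with Zip13KO as triangles and WT as circles, the group mean as a short line and the range of the 4 array medians as a grey band. Igfbp7 sits at 8.53 and 8.50 in Zip13KO against 11.92 and 11.93 in WT, Igfbp5 lies higher and Igf1 lower in Zip13KO, and the Igfbp2 and Igfbp3 arrays of both groups overlap.

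The sequences before the annotated start sites of the 3 genes with the largest differences are shown for reference, so that the letters searched for motifs can be seen. They are the 250 bases upstream of the RefSeq start on GRCm38.p6, 5′ to 3′ along the gene. Capitals mark every match to a searched motif on either strand. The Igfbp7 stretch is chr5:77408046-77408295 (minus strand), that of Igfbp5 chr1:72874866-72875115 (minus strand) and that of Igf1 chr10:87860861-87861110 (plus strand). Igf1 itself is annotated at chr10:87858265-87937047, so its stretch lies inside the gene, before a start within it.
Igfbp7: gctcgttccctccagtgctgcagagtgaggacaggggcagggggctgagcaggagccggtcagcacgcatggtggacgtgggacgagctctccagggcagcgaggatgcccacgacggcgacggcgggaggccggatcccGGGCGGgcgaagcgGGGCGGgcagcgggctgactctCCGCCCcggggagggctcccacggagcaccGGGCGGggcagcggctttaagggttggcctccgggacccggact
Igfbp5: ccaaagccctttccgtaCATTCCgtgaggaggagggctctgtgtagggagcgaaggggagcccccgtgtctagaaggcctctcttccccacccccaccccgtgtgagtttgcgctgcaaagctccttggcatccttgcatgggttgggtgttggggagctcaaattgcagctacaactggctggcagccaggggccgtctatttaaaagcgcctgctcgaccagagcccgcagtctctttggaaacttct
Igf1: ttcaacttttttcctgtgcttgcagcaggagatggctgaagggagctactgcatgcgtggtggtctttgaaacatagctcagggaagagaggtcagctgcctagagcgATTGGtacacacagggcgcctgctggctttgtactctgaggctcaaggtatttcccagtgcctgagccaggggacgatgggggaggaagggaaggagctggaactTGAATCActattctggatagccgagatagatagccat

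The Igfbp7 stretch was 74.0% G and C with 26 CpG pairs, against medians of 52.4% and 6 over the 32851 promoters in the RefSeq table, where a gene can have several. It held 4 GC boxes (GGGCGG, the letters bound by SP1-type factors), none overlapping, between positions -110 and -39 counted from the start. The Igfbp5 stretch was 58.8% G and C and held 1 match, to the TEAD letters GGAATG, which begins at -233. The Igf1 stretch held a CCAAT box (CCAAT) and a match to TGANTCA, the AP-1 letters searched, which begin at -142 and -37. N stands for any base, and the match reads TGAATCA, so it is not shown to be an AP-1 site. GC boxes were found in 32.7% of all promoters, the TEAD letters in 12.6%, CCAAT in 33.8% and the AP-1 letters in 6.75%.

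All 10 genes had a promoter in that table, 14 in all, since Igf2 had 4 and Igfbp2 had 2. GC boxes were in 6 of the 14, before Igf1r, Igf2, Igf2r, Igfbp2 and Igfbp7. The TEAD letters were in 4, before Igf2 and Igfbp5. CCAAT was in 3, before Igf1, Igf2 and Igfbp6, and the AP-1 letters were in 2, before Igf1 and Igfbp2. The only promoters of Igf1, Igfbp3 and Igfbp4 lay inside the annotated gene, as did some of those of Igf2 and Igfbp2. The core of metal response elements, TGCACNC or TGCGCNC, which the zinc-sensing factor MTF1 recognises, was present in 6 of the 14, before Igf1r, Igf2, Igfbp2, Igfbp3 and Igfbp4, and in 21.4% of all promoters. In 1 Igf2 promoter such a match overlapped a GC box. The Golgi stress letters ACGTGGC and the FOXO letters TGTTTAC matched none of the 14, and 2.02% and 3.17% of all promoters. The TATA letters TATAAA were found before Igfbp4 and Igfbp6 (12.4% of all). The Igfbp4 match begins at -28, and that of Igfbp6 begins at -148 and is on the other strand. The E-box CACGTG was found before Igf2r and Igfbp2 (6.02% of all). A match is a description of these letters and no measure of binding.

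**Figure D2:**
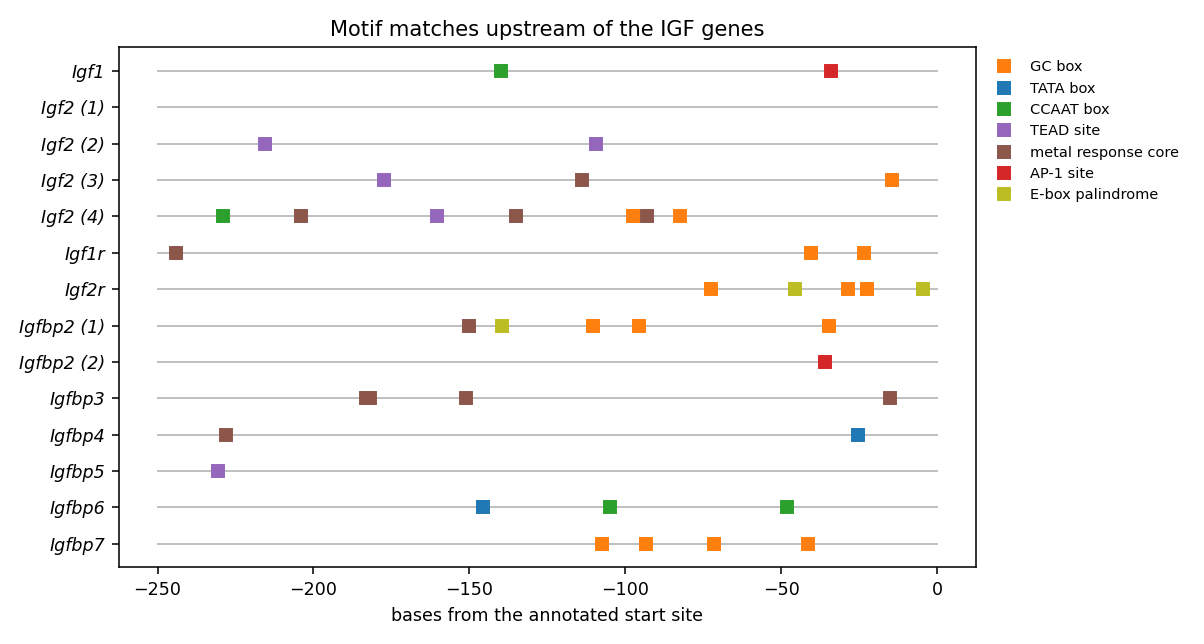
Positions of motif matches in the 250 bases before each annotated start of the 10 genes (horizontal axis: bases from the start; 1 line per promoter, numbered along the gene where there are several; colour gives the motif). The 4 GC boxes of Igfbp7 lie between -110 and -39, and the Igfbp5 stretch has 1 match.

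Among the ligands, Igf1 had log2 intensities of 6.84 and 6.56 in Zip13KO, against 8.01 and 7.99 in WT. Both Zip13KO arrays lay more than a log2 unit below both WT arrays, and the lower of them fell under its own array's median of 6.57. The difference was -1.30 (SE 0.09, 95% interval -1.49 to -1.11, limma adjusted p = 7.44e-09), and 93 genes fell by more. The Zip13KO arrays differed more from each other (SD 0.20) than the WT arrays did (SD 0.01, n = 2 each). Near the array median the signal of a row is hard to tell from background, which compresses folds, so the fold of Igf1 may be understated.

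Igf2, an imprinted ligand gene most active before birth, had 7.46 and 7.43 in Zip13KO, against 7.98 and 7.87 in WT. The groups did not overlap. Igf2 fell by 0.48 log2 units (SE 0.08, 95% interval -0.65 to -0.31, limma adjusted p = 2.50e-04), which is 1.40-fold, and this interval does not reach that of Igf1. Mir483, a microRNA gene next to Igf2 by start position in the gene table, had 7.45 and 7.43 in Zip13KO against 7.60 and 7.31 in WT and did not pass. Neither did the antisense transcript Igf2os, at -0.10. Order by start position does not show whether a gene lies inside Igf2 or beside it.

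Igf1r, the signalling receptor, had 8.52 and 8.66 in Zip13KO, against 9.02 and 9.01 in WT. It fell by 0.43 log2 units (SE 0.08, 95% interval -0.59 to -0.27, limma adjusted p = 4.86e-04), or 1.34-fold, without overlap between groups. Igf2r, the clearance and sorting receptor, had 8.69 and 8.97 in Zip13KO, against 9.09 and 9.07 in WT. Its groups did not overlap either, but Zip13KO replicate 2 lay close to WT. The difference of -0.25 (95% interval -0.43 to -0.07) missed the threshold (limma adjusted p = 0.0531). It was -0.39 and past the threshold without Zip13KO replicate 2 (adjusted p = 7.37e-04), and -0.11 without Zip13KO replicate 1 (adjusted p = 0.537). All 4 ligand and receptor genes were lower in Zip13KO without overlap, as were 27.3% of all genes, and 3 of the 4 passed in that direction, as did 10.1% of all genes. Their median difference was -0.45, beside -0.0034 over all genes.

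**Figure D3:**
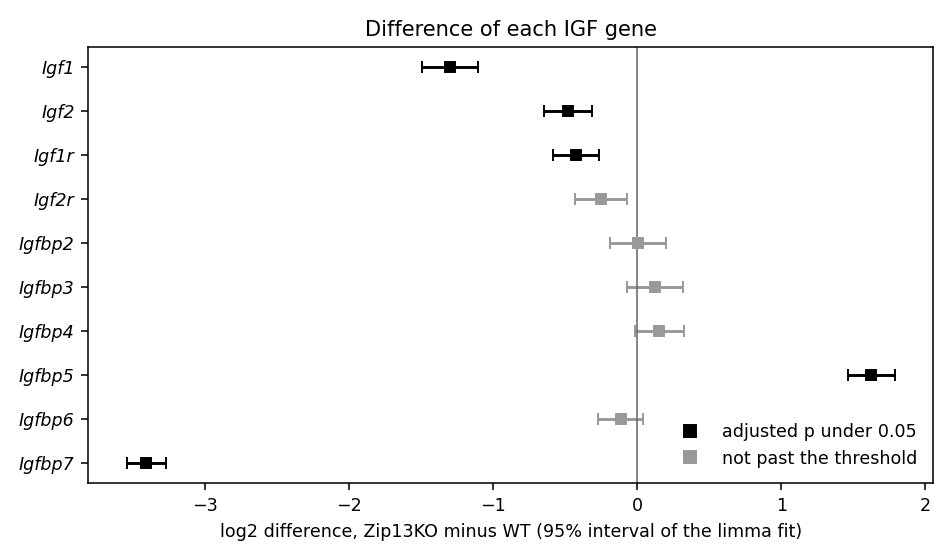
Difference in log2 intensity, Zip13KO minus WT (horizontal axis), of each of the 10 genes, with 95% intervals of the limma fit, black where the adjusted p was under 0.05. Igfbp7 at -3.41, Igf1 at -1.30 and Igfbp5 at 1.62 stand apart from 0, Igf2 and Igf1r lie between -0.65 and -0.27 with their intervals, and the intervals of Igfbp2, Igfbp3, Igfbp4 and Igfbp6 include 0.

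Of the 6 binding proteins 1 was lower, 1 was higher and 4 did not pass the threshold. The share that passed was 33.3%, beside 17.1% of all genes. It was 26.1% of the genes above the array median, as all 6 were, so this count is not far from the background. Igfbp7 encodes a secreted protein that binds IGFs weakly and also binds insulin, and that is tied to senescence and to blood vessel walls. It had log2 intensities of 8.53 and 8.50 in Zip13KO, against 11.92 and 11.93 in WT. Arrays within a group differed little (SD 0.03 in Zip13KO and 0.01 in WT, n = 2 each) beside the difference of -3.41 (SE 0.07, 95% interval -3.55 to -3.27, limma adjusted p = 3.06e-16). Of all 22180 genes 3 fell by more. In WT Igfbp7 was among the bright rows of the arrays, and in Zip13KO it remained well above the array medians of 6.59 and 6.57.

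Igfbp5 encodes a binding protein that attaches to the extracellular matrix and is active in bone, muscle and fibroblasts. It had 9.12 and 9.23 in Zip13KO, against 7.57 and 7.53 in WT, with no overlap. It rose by 1.62 log2 units (SE 0.08, 95% interval 1.46 to 1.79, limma adjusted p = 3.43e-11), and 27 genes rose by more. Its neighbour on chromosome 1 is Igfbp2, which encodes a binding protein with an integrin-binding motif. Igfbp2 had 7.23 and 6.99 in Zip13KO, against 7.17 and 7.04 in WT, and the groups overlapped. Its difference was 0.0035 (95% interval -0.19 to 0.20, limma adjusted p = 0.99), so a change as large as that of Igfbp5 lies far outside its interval. The gene on the other side of Igfbp5, Tnp1, was at 0.05 (95% interval -0.14 to 0.24).

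The remaining binding proteins differed by 0.15 log2 units or less. Igfbp4, whose protein is cut by the protease PAPPA to release IGF, had 7.10 and 7.00 in Zip13KO, against 6.89 and 6.91 in WT. The groups did not overlap, yet the difference of 0.15 (95% interval -0.02 to 0.32) did not pass (limma adjusted p = 0.264). Igfbp3, whose protein is the main IGF carrier of serum, had 6.83 and 6.66 in Zip13KO, against 6.51 and 6.73 in WT. These arrays overlapped and lay close to the array medians, 1 of them below, and the interval ran from -0.07 to 0.31 (limma adjusted p = 0.492). Igfbp6, which prefers IGF2 over IGF1, had 9.09 and 8.99 in Zip13KO, against 9.12 and 9.19 in WT. Its groups did not overlap, and the interval ran from -0.27 to 0.04 (limma adjusted p = 0.382). Igfbp1, the binding protein of liver, which is outside the 10 genes, lay below the array medians in both groups and was at -0.04.

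The genes whose profile over the 4 arrays was nearest to that of Igfbp7, by Euclidean distance between log2 values centred on each gene's mean, were Hspb8 (distance 0.188), Nrn1 (0.224) and Postn (0.281). Hspb8, a small heat shock protein, fell by 3.30, the neuritin gene Nrn1 fell by 3.19 and the matrix protein gene Postn fell by 3.68. Those nearest to Igfbp5 were Adgrl3 (distance 0.047), an adhesion receptor, Plekhh2 (0.067) and Ntn4 (0.099), which encodes a netrin. They rose by 1.62, 1.60 and 1.71, although Adgrl3 was at 0.91 as the mean of its rows. All profiles share the same 4 arrays, so nearness here means little more than a like difference between groups. The measured genes next to the 5 called members by start position in the gene table were between -0.16 and 0.13, none past the threshold. Among them were Polr2b next to Igfbp7 at 0.13 and Pmch next to Igf1 at -0.16.

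Around the 10 genes, 5 lists of further IGF pathway genes held 69 names, of which 58 had a row of their own. Of the other 11, 3 shared a row with another symbol and 8 had no named row here. Of the 58 genes, 8 rose and 11 fell, which is 32.8%, beside 17.1% of all genes and 26.1% of those above the array median. Over all genes 7.00% rose and 10.1% fell. Of the genes above the array median on 2 or more arrays, as 52 of the 58 were, 10.6% rose and 15.5% fell. Both pairs of shares are to be set beside the list counts below, the second being nearer in intensity. The median difference of the 58 genes was -0.03, beside -0.0034 over all genes. The changes were mostly small, and the count moved with single arrays: 8 higher became 2 without WT replicate 2 and 5 without any of the other 3 arrays, and 11 lower became 6 without WT replicate 1.

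Outside the cell, 3 of 12 regulators of IGF availability fell and 1 rose (median difference 0.05). Lrp1, an endocytic receptor reported to bind IGFBP3, had 8.26 and 8.48 in Zip13KO, against 9.57 and 9.44 in WT, and fell by 1.13 (SE 0.08, limma adjusted p = 1.63e-08). Htra1, a serine protease that cuts binding proteins, had 8.92 and 8.97 in Zip13KO, against 9.23 and 9.19 in WT, and fell by 0.26. Pappa, the IGFBP4 protease, had 6.55 and 6.40 in Zip13KO, against 6.84 and 6.65 in WT, and fell by 0.27 (adjusted p = 0.0476). Stc2, whose protein inhibits PAPPA, had 8.13 and 8.03 in Zip13KO, against 7.87 and 7.77 in WT, and rose by 0.26 (adjusted p = 0.0343). The groups of these 4 genes did not overlap, as was so for 51.5% of all genes. The groups of Pappa differed by little and lay near the array medians. The call of Pappa was lost on leaving out WT replicate 1 (-0.17, adjusted p = 0.395) or Zip13KO replicate 2 (-0.19, adjusted p = 0.243). That of Stc2 was lost on leaving out Zip13KO replicate 1 (0.21, adjusted p = 0.197) or WT replicate 2 (0.20, adjusted p = 0.245). That of Htra1 was lost on leaving out Zip13KO replicate 1 (adjusted p = 0.0668) or WT replicate 1 (adjusted p = 0.109).

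In the mannose 6-phosphate route that IGF2R serves, 1 of 7 genes rose (14.3%), where 17.1% of all genes passed in either direction. Of the genes above the array median, as all 7 were, 26.1% passed. None fell in limma, with 1 lower at an unadjusted p under 0.05. That gene was M6pr, the smaller mannose 6-phosphate receptor, at -0.18 (adjusted p = 0.0602). Gnptab, part of the Golgi enzyme that starts the mannose 6-phosphate tag on lysosomal proteins, had 9.40 and 9.41 in Zip13KO, against 9.03 and 8.98 in WT, and rose by 0.40 (SE 0.07, limma adjusted p = 5.12e-04). Its partner subunit gene Gnptg was at 0.02, and Nagpa, which uncovers the tag, was at -0.08.

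Of 14 insulin receptor and adaptor genes, 3 rose and 3 fell. Grb14, an adaptor that inhibits the insulin receptor, had 7.13 and 7.25 in Zip13KO, against 7.75 and 7.74 in WT, and fell by 0.56 (SE 0.08, limma adjusted p = 6.17e-05). Shc1, which links receptors to the MAP kinase path, had 9.48 and 9.39 in Zip13KO, against 9.78 and 9.81 in WT, and fell by 0.36. Grb10, an imprinted relative of Grb14, fell by 0.27 and was named after its value was seen, as was the RAS activator Sos1 at 0.22. The call of Grb10 was lost on leaving out WT replicate 1 (adjusted p = 0.064), and that of Sos1 on leaving out any of the 4 arrays (adjusted p from 0.0508 to 0.223). Irs1, the substrate that carries the IGF1R signal to PI3K, had 8.11 and 8.27 in Zip13KO, against 7.96 and 7.75 in WT, and rose by 0.34. The mean of its 2 rows was at 0.15 and did not pass, so its rise depends on the row, and the call was also lost on leaving out Zip13KO replicate 2 (adjusted p = 0.0775) or WT replicate 2 (adjusted p = 0.168). Sh2b2, an adaptor of the insulin receptor, had 7.82 and 7.70 in Zip13KO, against 7.36 and 7.52 in WT, and rose by 0.32. Its call was lost on leaving out Zip13KO replicate 1 (0.26, adjusted p = 0.0844) or WT replicate 1 (0.24, adjusted p = 0.153). Neither Irs2 (-0.18, adjusted p = 0.164) nor Insr, the insulin receptor (-0.24, adjusted p = 0.0761), passed.

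Of 20 measured PI3K, AKT, mTOR, FOXO and MAP kinase genes, 3 rose and 3 fell. Gsk3b, a kinase that AKT inhibits, had 9.77 and 9.91 in Zip13KO, against 10.27 and 10.21 in WT, and fell by 0.40 (SE 0.07, limma adjusted p = 5.10e-04). The PI3K catalytic subunit genes Pik3cb and Pik3ca fell by 0.30 and 0.26, but neither passed without WT replicate 1 (adjusted p = 0.163 and 0.228) or Zip13KO replicate 1 (adjusted p = 0.191 and 0.261; Pik3cb -0.18 and Pik3ca -0.17). Phlpp1, a phosphatase that switches AKT off, rose by 0.29, though not past the threshold without WT replicate 2 (0.19, adjusted p = 0.255). Named after their values were seen, Foxo3, a transcription factor held back by AKT, and Rptor, a subunit of mTORC1, rose by 0.25 and 0.24. Both calls were lost on leaving out Zip13KO replicate 2, WT replicate 1 or WT replicate 2 (adjusted p from 0.0979 to 0.191 for Foxo3 and from 0.115 to 0.141 for Rptor). The kinase genes Akt1 and Akt2 were at -0.10 and -0.02, and Foxo1 was at 0.08, none past the threshold.

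Of 5 measured genes for IGF mRNA binding and imprinted neighbours, 2 fell and none rose in limma, with 0 higher at an unadjusted p under 0.05. Igf2bp3, whose protein binds Igf2 mRNA among others, had 8.65 and 8.70 in Zip13KO, against 9.72 and 9.70 in WT, and fell by 1.03 (SE 0.07, limma adjusted p = 5.29e-09). Plagl1, an imprinted transcription factor gene of the network that includes Igf2, had 7.14 and 7.38 in Zip13KO, against 7.76 and 7.82 in WT, and fell by 0.53 (limma adjusted p = 2.73e-04), or by 0.27 as the mean of its 2 rows. Airn, the antisense RNA of the Igf2r locus, was at -0.07, and the insulin gene Ins2 lay below the array medians.

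**Figure D4:**
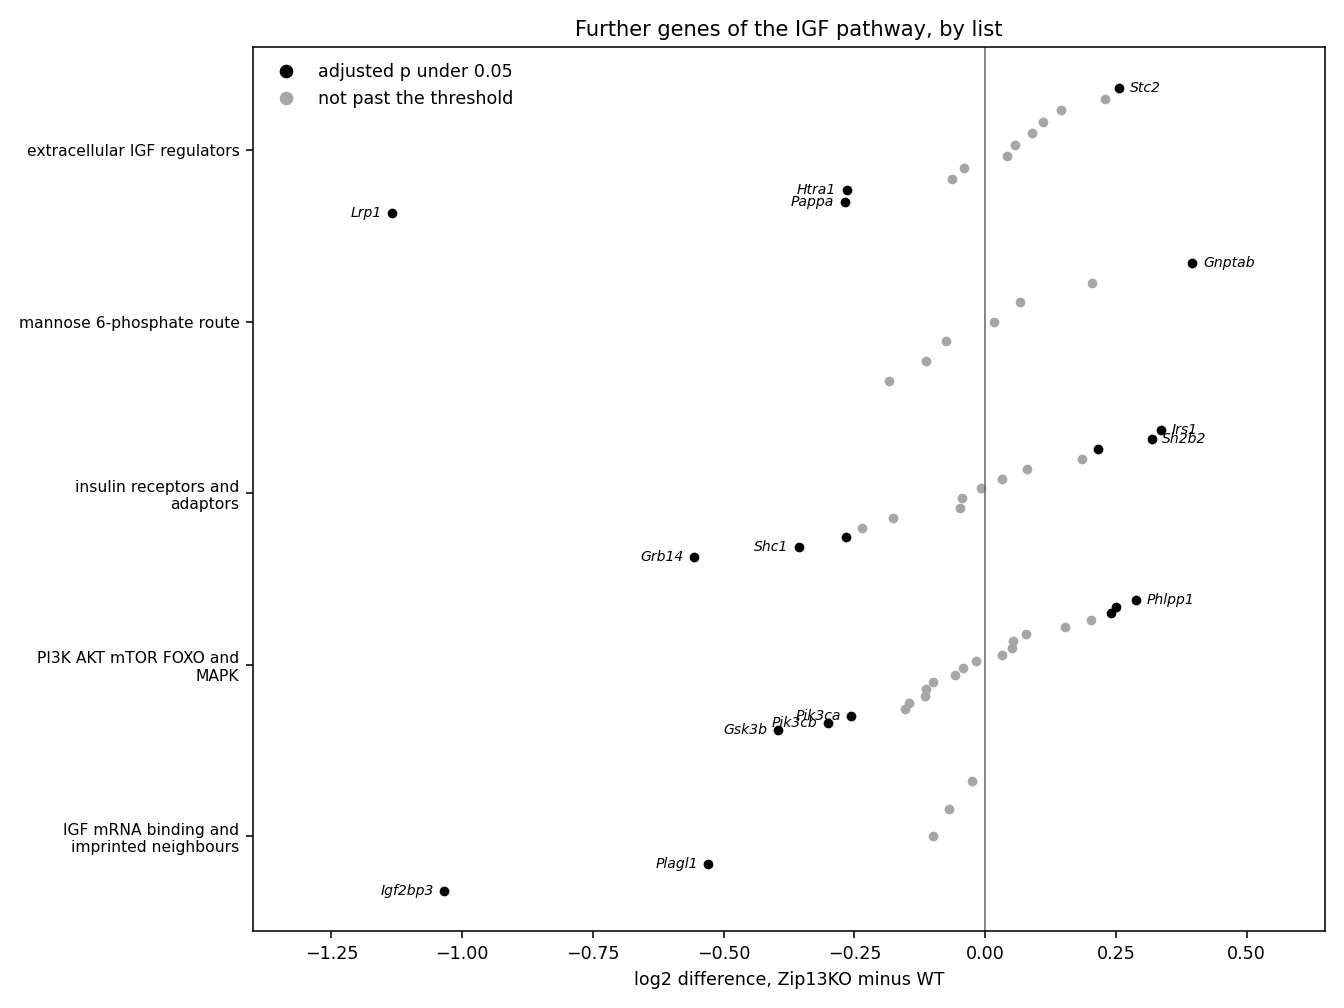
Difference in log2 intensity, Zip13KO minus WT (horizontal axis), of the 58 further pathway genes, grouped by list and black where the adjusted p was under 0.05. Lrp1 at -1.13 and Igf2bp3 at -1.03 lie farthest from 0, and the other genes lie between -0.56 and 0.40.

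The 5 calls among the 10 genes held under every alternative that was run. Igfbp7 ranged from -3.43 to -3.39, Igfbp5 from 1.57 to 1.68, Igf1 from -1.44 to -1.16, Igf2 from -0.54 to -0.43 and Igf1r from -0.49 to -0.36. Igf2r passed in 5 of 13 alternatives, and Igfbp2, Igfbp3, Igfbp4 and Igfbp6 in none.

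**Figure D5:**
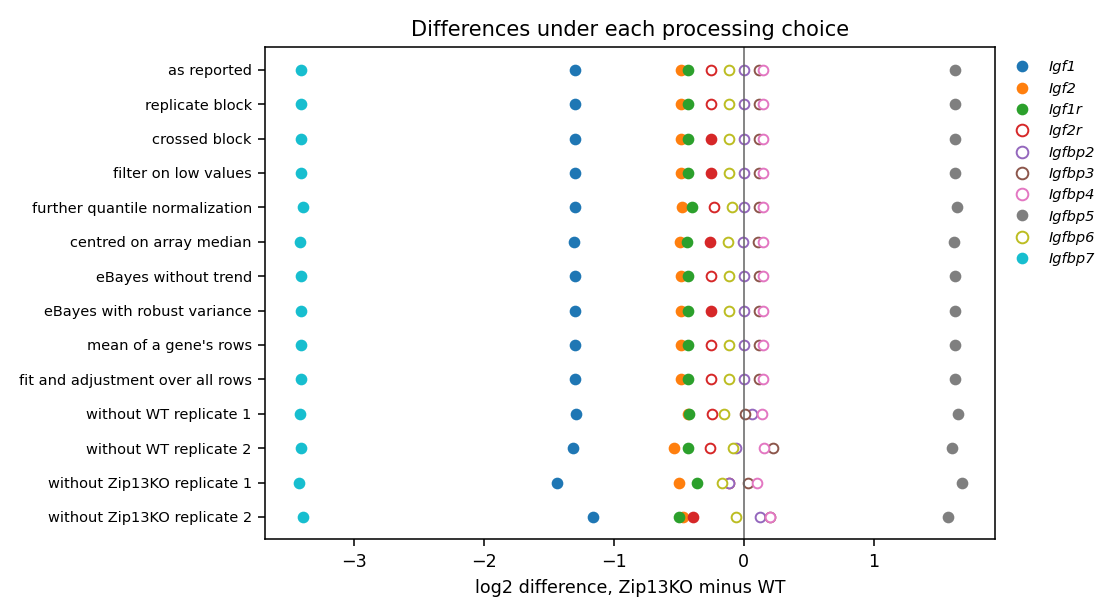
Difference in log2 intensity, Zip13KO minus WT (horizontal axis), of the 10 genes as reported and under each of 13 alternatives (vertical axis), filled where the adjusted p was under 0.05 and open otherwise. Igf2r changes between open and filled, while Igfbp7, Igf1, Igf2, Igf1r and Igfbp5 are filled throughout.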

How the data were processed

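Total RNA of 4 fibroblast samples was measured on Affymetrix arrays, per the labels. The values are linear intensity as deposited by the authors, and the submitters' processing notes name Affymetrix Expression Console and RMA without versions. RMA normalizes between arrays, so a shift common to most genes cannot appear. The tests were planned for log2 values, so log2 of the deposited intensity was taken, with no pseudocount. Gene names came from GEO's platform annotation: 23521 of 41345 rows had 1 symbol, 1814 several and 16010 none here. The brightest row per gene was kept, without an intensity filter.

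Groups follow the labels. limma 3.58.1 in R 4.3.3 (lmFit, eBayes with trend, two-sided) was fitted over 22180 genes with Benjamini-Hochberg adjustment and a threshold of 0.05, with 2 residual and 15.1 prior degrees of freedom. Differences are Zip13KO minus WT. The fit was tested on simulated data with independent noise that met its assumptions. Such data cannot show whether the replicates here were technical. The number of arrays limits the precision. Named were the 10 genes, Slc39a13, up to 4 genes per list past the threshold by size (or the one with the smallest p), the 3 nearest profiles to the members that moved most, and measured neighbours. RefSeq tables on GRCm38.p6 gave neighbours and promoters; the build behind the array rows is not given in the sources used here. Alternatives were a replicate block, a filter on low values, quantile normalization, median centring, other variance priors, the mean of rows, a fit over all rows and leaving out each array. The members and lists were chosen with earlier results of these data known. Plots used matplotlib 3.10.9.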

Additional observations from a re-analysis of the deposited data

How the results depend on the processing

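The count of the 10 genes past the threshold was 4 or 5 lower and 1 higher under all 13 alternatives, with Igf2r as the gene that came and went. The counts of the 58 further genes (11 lower and 8 higher) moved more. A fit and adjustment over all rows of the table gave 6 lower and 1 higher, and it called 1806 genes in all, against 3786. With the replicate number as a block 9 were lower and 4 higher. Leaving out each array in turn gave 6 to 12 lower and 2 to 5 higher. Deviations of same-numbered arrays correlated at -0.16 over genes. The samples share only a number, and crossed replicate numbers, added after the data were seen, gave 14 lower and 13 higher, with 5208 calls in all. The block on the replicate number as labelled changed no call among the 10 genes. With crossed numbers Igf2r passed (limma adjusted p = 0.00114). The fits without an array held fewer samples, and the fit over all rows held more rows. Whether this or something else caused the shifts was not tested. No result of the 10 genes that passed changed direction. The number of arrays and, for Igf1, Igfbp3 and Pappa, a signal near the array median limit what can be told.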
